A study of Rattus norvegicus with 30 samples.

Results

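Lymphocyte genes were followed in the liver that remains after partial hepatectomy, in which a share of the organ is cut away, in rats. The set holds 32 markers of T cells, natural killer (NK) cells and B cells, and 30 of them were found among the 18166 genes that carried a symbol on the array. The markers were chosen with earlier results of these data known, so their contrasts with all genes are descriptions and no independent support. Il2rb and Pax5 were not matched to a probe set here. Of the 30 genes, 14 belong to T cells, 7 to cytotoxic and NK cells, 5 to B and plasma cells, and 4 are homing receptors or chemokines.

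Expression was measured on 1 Affymetrix Rat Gene 2.0 ST array per animal in 30 wildtype Wistar rats, 6 in each of 5 groups. The groups were removal of 30% of the liver (PH30), 70% (PH70) or 90% (PH90), a sham operation, and no operation, and the livers of operated rats were taken 24 hours after surgery. The samples were whole liver tissue with all of its cell types. The series title asks how the size of the resection alters expression in the remaining liver.

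The liver is rich in lymphocytes that patrol its sinusoids, and NK cells make up an unusually large part of them. T cells recognise antigen through the T cell receptor, whose signal is carried by the CD3 chains and the kinases Lck and Zap70. NK cells and cytotoxic T cells kill target cells with perforin and granzymes, and NK cells decide when to kill through receptors such as NKG2D (Klrk1) and NKp46 (Ncr1). B cells signal through the CD79 chains of their receptor and gather along gradients of the chemokine Cxcl13.

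The deposited values are log2 values centred on each probe set's median over the 30 arrays. A value of 0 is therefore the middle of all rats for that gene, and differences between groups are kept while levels are lost. No gene is called abundant or absent here, the tissue could not be checked by the presence of defining markers, and whether a probe set lay above background is not known. Fewer cells of a type and less RNA per cell cannot be told apart in whole tissue. A gene is called lower or higher where limma's moderated test, adjusted by Benjamini-Hochberg over all 18166 genes, gave an adjusted p below 0.05. Adjusted p-values and standard errors (SE) come from the fit of all 30 arrays, except where another setting is named beside them.

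One rat of PH30 and one of PH70 stood apart from their groups over all genes. The array of PH30 rat 95 correlated at -0.113 on average with its own group and at 0.498 with PH70. That of PH70 rat 139 correlated at -0.114 with its own group and at 0.203 with sham. In the remaining 28 arrays the mean correlation with the own group ran from 0.18 to 0.827. Both rats were kept, and calls that change without them are given both ways.

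The promoters of 4 genes that the results turn on are shown first: 3 cytotoxic genes that were lower in PH90 than in sham, and Cxcl13, which was lower in every operated group than in the unoperated rats. RefSeq (build GRCr8) gave a promoter for 21 of the 30 genes. Each sequence is the 250 bases upstream of the transcript start that the promoter table uses, 5′ to 3′ on the gene's strand. For Klrk1 that start lies inside the annotated gene, whose span covers the last 71 of the bases shown, and for the other genes the sequence ends where the gene begins. Capitals mark the letters TGTGGT, a core bound by RUNX factors, GGAAGT, a core bound by ETS factors, and TATAAA, the TATA box, or their reverse complements.

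Klrk1, chr4:164778383-164778632, minus strand: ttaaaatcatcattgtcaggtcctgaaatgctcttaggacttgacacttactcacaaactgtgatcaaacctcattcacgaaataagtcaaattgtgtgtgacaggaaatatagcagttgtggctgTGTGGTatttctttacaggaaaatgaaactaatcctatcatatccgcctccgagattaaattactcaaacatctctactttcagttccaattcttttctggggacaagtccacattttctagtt

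Prf1, chr20:29788790-29789039, plus strand: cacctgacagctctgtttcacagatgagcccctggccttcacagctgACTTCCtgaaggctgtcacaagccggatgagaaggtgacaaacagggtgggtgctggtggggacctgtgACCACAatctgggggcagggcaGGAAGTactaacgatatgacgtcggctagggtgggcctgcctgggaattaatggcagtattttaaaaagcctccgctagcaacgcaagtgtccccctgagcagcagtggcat

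Nkg7, chr1:102981247-102981496, plus strand: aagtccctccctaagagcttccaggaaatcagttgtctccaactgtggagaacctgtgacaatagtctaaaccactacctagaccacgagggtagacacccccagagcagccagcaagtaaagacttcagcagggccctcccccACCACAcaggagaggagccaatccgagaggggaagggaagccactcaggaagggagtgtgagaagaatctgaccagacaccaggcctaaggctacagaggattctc

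Cxcl13, chr14:13917921-13918170, minus strand: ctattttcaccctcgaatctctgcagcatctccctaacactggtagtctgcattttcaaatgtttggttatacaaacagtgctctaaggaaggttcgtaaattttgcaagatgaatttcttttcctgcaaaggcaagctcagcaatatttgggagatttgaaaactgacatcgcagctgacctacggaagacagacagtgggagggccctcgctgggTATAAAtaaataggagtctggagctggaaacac

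The 3 cytotoxic genes each held 1 match to TGTGGT or its complement ACCACA, whose first base lay 124 (Klrk1), 134 (Prf1) and 106 (Nkg7) bases upstream of that start. Prf1 also held GGAAGT at 112 and its complement ACTTCC at 203, and Cxcl13 held TATAAA at 33. No 2 of these matches overlapped. Over all 33469 promoters of the table, 14.5% held TGTGGT on either strand, 19.2% GGAAGT and 12.9% TATAAA in a stretch of this length. Among the 21 promoters of the lymphocyte genes the counts were 9, 7 and 3. The motifs were chosen with these sequences in view, and a match is only a description of the letters.

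Across the 5 groups, 13 of the 30 genes differed in limma's F test, or 43.3% in a test that called 42.7% of all genes. The share that varied at all was thus close to the background, while the direction was mostly downward in PH90. PH90 had the lowest of the 5 group means for 21 of the 30 genes (70%), against 28.9% of all genes. The means fell in steps from sham to PH30, PH70 and PH90 for 11 genes (36.7%), against 11.8% of all genes: Cd4, Cd8a, Cd7, Il7r, Gzmb, Prf1, Klrd1, Klrk1, Ncr1, Jchain and Cxcl13. These counts describe the genes and were not tested. Some steps were minute, as from PH30 to PH70 in Il7r (0 and 0 after rounding) and Gzmb (0.002 and -0.003). Neither of these genes passed the F test. The spread was ordinary, with a median SD within groups of 0.14 for the lymphocyte genes and 0.147 for all genes. The span between the highest and lowest group mean had a median of 0.189, below the 0.236 of all genes.

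**Figure D1:**
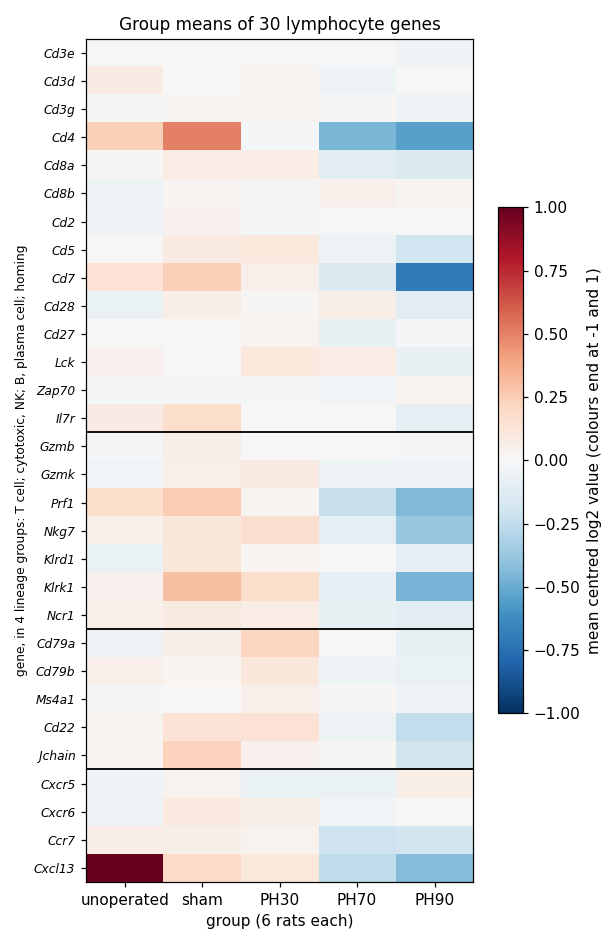
Mean centred log2 value of each of the 30 lymphocyte genes (rows, in lineage blocks) in each group of 6 rats (columns), blue below and red above the middle of all rats. Most rows are nearly white, Cd4, Cd7, Prf1, Nkg7 and Klrk1 turn blue towards PH90, and Cxcl13 is deep red in the unoperated rats, with a mean of 1.32 that lies past the end of the colour scale, and pale red in sham (0.19) and PH30 (0.1).

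Of these genes, Cxcl13 was the one that differed between sham and unoperated rats. Cxcl13, the chemokine that draws B cells into follicles, lay between 0.76 and 1.8 in the unoperated rats, with a median of 1.43. In sham it lay between -0.11 and 0.51, with a median of 0.15, so that all 6 sham rats were below all 6 unoperated rats. The fall was 2.19-fold (log2 difference -1.13, SE 0.18, adjusted p = 0.00097). It was the 1 gene of 30 called lower, with 0 higher, where 0.429% of all genes were lower and 0.308% higher. Without adjustment, 2 were higher and 1 lower at p below 0.05 in limma, where 903 of all 18166 genes were higher and 1104 lower. The median over the 30 genes was 0.07, against 0.004 for all genes. Klrd1, which encodes CD94, the partner chain of the NKG2A receptor of NK cells, was 0.19 higher in sham and reached a call only with array weights (0.2, adjusted p = 0.039). Rat numbers of the unoperated group (145 to 152) were higher than those of all operated rats, so a drift in that order cannot be told apart from the operation.

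Cxcl13 was lower in PH90 than in sham. Its range was -0.39 to 0.72 in PH30, -0.56 to 0.09 in PH70 and -0.77 to -0.11 in PH90. PH90 was below sham by 0.63 (SE 0.18, adjusted p = 0.0076), with 1 rat of each group in the overlap, and PH70 differed from sham by -0.45 (SE 0.18, adjusted p = 0.094). Every rat of the 3 resected groups lay below the lowest unoperated rat. Cxcr5, the receptor through which B cells follow Cxcl13, did not pass in any comparison of all 30 arrays, and its group means lay within 0.138 of each other.

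Removal of 30% of the liver changed 0 of the 30 genes, where 2.2% of all genes were higher and 3.34% lower. Without adjustment, 1 was higher and 1 lower at p below 0.05 in limma, where 1785 of all 18166 genes were higher and 1871 lower. The median over the 30 genes was -0.02. Cd4 came closest. It encodes the coreceptor of helper T cells and in the rat is also carried by monocytes and macrophages. Cd4 lay between -0.29 and 0.25 in PH30 and between 0.26 and 0.71 in sham, so that the groups did not overlap, with a difference of -0.52 (SE 0.18, adjusted p = 0.08). It was called lower without rats 95 and 139 (-0.51, adjusted p = 0.021), when sham and PH30 were fitted by themselves (adjusted p = 0.0094), with array weights (adjusted p = 0.028) and among the genes above the median SD (adjusted p = 0.045).

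After removal of 70% of the liver 4 of the 30 genes were lower than in sham and 0 higher, or 13.3%, where 8.15% of all genes were lower and 10.5% higher. Unadjusted p-values of limma fell below 0.05 for 10 lower genes and 0 higher ones. Among all 18166 genes 2536 were lower and 2667 higher at that threshold. Without rats 95 and 139, 6 of the 30 were lower and 0 higher, where 10.9% of all genes were lower and 12.7% higher. The 4 genes were Cd4, Prf1, Klrk1 and Ccr7, and the median over the 30 was -0.11, against -0.01 for all genes. In PH90 the number rose to 13 lower and 0 higher, or 43.3%, where 14.7% of all genes were lower and 19.9% higher. Before adjustment 14 were lower and 0 higher at p below 0.05 in limma, where 3283 of all 18166 genes were lower and 4160 higher. The median over the 30 was -0.16, against -0.002 for all genes. All PH90 rats lay below all sham rats for 7 genes (23.3%): Cd4, Cd7, Prf1, Klrd1, Klrk1, Cd22 and Jchain. That pattern held for 8.48% of all genes. Both resections were set against the same sham rats. Against unoperated rats 8 genes were lower in PH90 and 0 higher, where 14.5% of all genes were lower and 19.3% higher. Cd8a, Cd5, Klrd1, Ncr1 and Jchain were not among the 8.

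**Figure D2:**
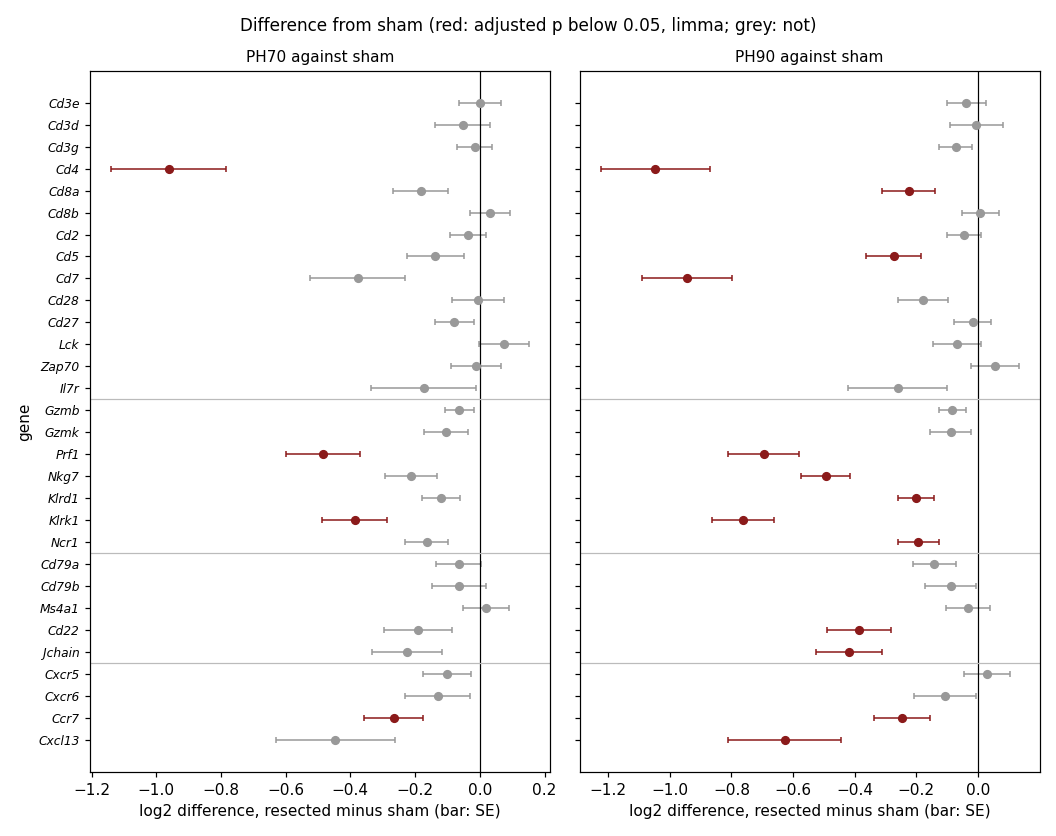
Log2 difference from sham (horizontal axis) with its SE for the 30 genes (rows) in PH70 (left) and PH90 (right), red where the adjusted p was below 0.05. The 4 genes called in PH70 and the 13 called in PH90 all lie to the left of 0, from -0.19 for Ncr1 to -1.05 for Cd4 in PH90.

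Cytotoxic and NK genes were lower in PH90 than in sham in 5 of 7 cases (71.4%) and higher in 0, with a median difference of -0.2. Of all genes 14.7% were lower and 19.9% higher. Klrk1 encodes NKG2D, an activating receptor that recognises stressed cells. Klrk1 lay between 0.08 and 0.67 in sham, between -0.08 and 0.53 in PH30, between -0.28 and 0.2 in PH70 and between -0.66 and -0.27 in PH90, with medians of 0.26, 0.18, -0.09 and -0.42. Sham and PH90 were fully apart, while PH70 overlapped both sham and PH90. The fall from sham was 1.31-fold in PH70 (-0.39, SE 0.1, adjusted p = 0.0059) and 1.7-fold in PH90 (-0.76, SE 0.1, adjusted p = 3.5e-07). In the unoperated rats Klrk1 lay between -0.09 and 0.26, with a median of 0.01, and PH70 differed from them by only -0.13 (adjusted p = 0.48).

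Prf1, perforin, forms the pore through which granzymes enter a target cell. Prf1 had medians of 0.26 in sham, 0.07 in PH30, -0.22 in PH70 and -0.46 in PH90. The PH90 rats were close together, between -0.55 and -0.32, and all below the lowest sham rat at -0.05. Prf1 fell 1.4-fold in PH70 (-0.48, SE 0.11, adjusted p = 0.0025) and 1.62-fold in PH90 (-0.7, SE 0.11, adjusted p = 1.1e-05).

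Nkg7, a membrane protein of the cytotoxic granule, differed by -0.21 in PH70 (SE 0.08, adjusted p = 0.062), or by -0.25 without rats 95 and 139 (adjusted p = 0.027). In PH90 Nkg7 fell 1.41-fold (-0.49, SE 0.08, adjusted p = 8.4e-06). Its PH90 rats lay between -0.64 and -0.11 (median -0.37) and its sham rats between -0.12 and 0.28 (median 0.11), with 1 value of each group in the overlap. Klrd1 fell by 0.2 (SE 0.06, adjusted p = 0.007) and Ncr1, the receptor NKp46 that marks NK cells, by 0.19 (SE 0.07, adjusted p = 0.024). Klrd1 was -0.02 from the unoperated rats (adjusted p = 0.9). The call of Ncr1 was lost without sham rat 41 or 45 or PH90 rat 43, 61 or 87, where its difference was between -0.18 and -0.15.

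The granzymes measured here as part of the set did not pass. Gzmb, the granzyme that triggers apoptosis, differed by -0.08 (SE 0.04, adjusted p = 0.16) and Gzmk by -0.09 (SE 0.07, adjusted p = 0.36) between PH90 and sham. Gzmb was the mean of 3 probe sets whose lowest pairwise correlation over the rats was 0.006. With probe sets that did not all vary together, the Gzmb value is uncertain.

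**Figure D3:**
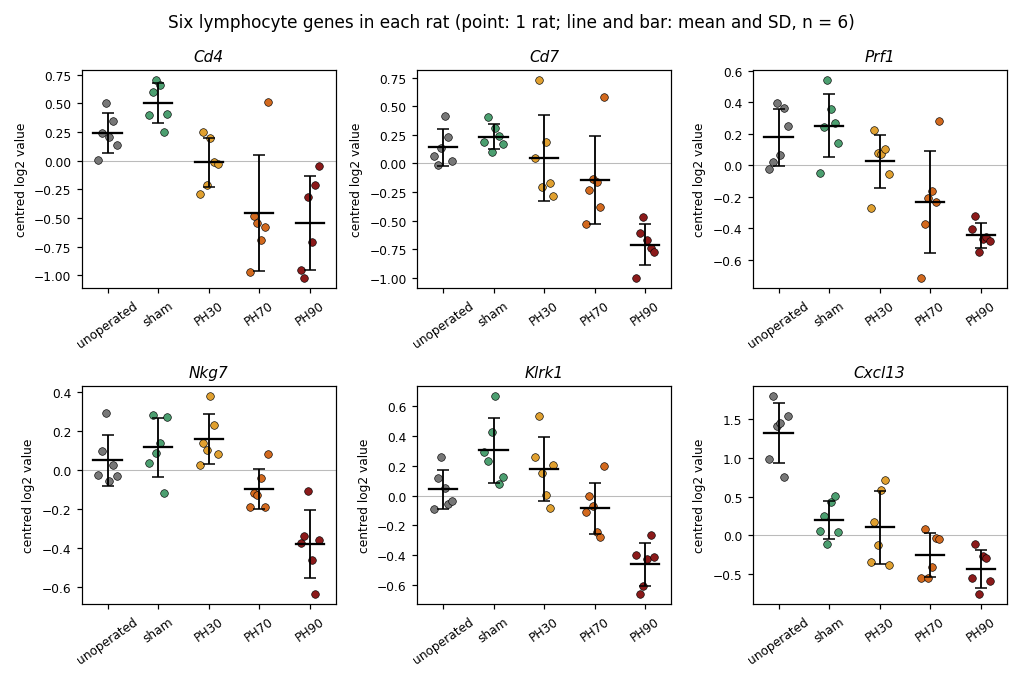
Centred log2 value (vertical axis) of Cd4, Cd7, Prf1, Nkg7, Klrk1 and Cxcl13 in each rat by group, with the group mean and SD (n = 6). PH90 rats are low in all panels, PH70 rat 139 is the high orange point of Cd4 (0.51), Cd7 (0.58) and Prf1 (0.28), and Cxcl13 separates the unoperated rats from the rest.

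Among the 14 T cell genes 4 were lower in PH90 than in sham (28.6%) and 0 higher, with a median of -0.07. Of all genes 14.7% were lower and 19.9% higher. The 4 T cell genes were Cd4, Cd7, Cd5 and Cd8a. Cd4 ran from -1.02 to -0.05 in PH90, with a median of -0.51, against 0.5 in sham. The fall was 2.07-fold (-1.05, SE 0.18, adjusted p = 1.7e-05) and was nearly as large in PH70, at 1.95-fold (-0.96, SE 0.18, adjusted p = 0.00021). In PH70 5 rats lay between -0.97 and -0.48, and rat 139 at 0.51 was among the sham values. Without rats 95 and 139 the PH70 difference was -1.16 (adjusted p = 4.7e-07).

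Cd7, a surface protein of T and NK cells, was lower in PH90 than in each of the other operated groups. Cd7 lay between 0.1 and 0.4 in sham (median 0.21) and between -1 and -0.47 in PH90 (median -0.7), a 1.93-fold fall (-0.94, SE 0.15, adjusted p = 5.1e-06) with no overlap. In PH70 the range was -0.53 to 0.58 and the difference from sham -0.38 (SE 0.15, adjusted p = 0.075). Without rats 95 and 139 it was -0.52 (adjusted p = 0.0016).

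Cd5, which restrains signalling from the T cell receptor, was lower in PH90 by 0.27 (SE 0.09, adjusted p = 0.014), with overlapping ranges. Cd8a encodes the CD8 alpha chain, which in the rat is found on NK cells as well as on killer T cells, and fell by 0.22 (SE 0.09, adjusted p = 0.043). Its call was lost without any of sham rats 41, 45, 112, 141 and 143 or PH90 rats 39, 43 and 61, where the difference was between -0.23 and -0.18. Cd8b, the beta chain found on T cells, differed by 0.01 (SE 0.06, adjusted p = 0.94).

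The core of the T cell receptor complex did not pass in any comparison. Between PH90 and sham, Cd3e differed by -0.04 with a 95% confidence interval from -0.17 to 0.09, Cd3d by -0.005 (-0.18 to 0.17) and Cd3g by -0.07 (-0.18 to 0.04). These intervals exclude falls of the size seen in Cd4, Cd7, Prf1 or Klrk1, but the intervals cover the spread between arrays only and assume that the probe sets respond to their transcripts. The group means of Cd3e spanned 0.039, a smaller span than in all but 1.5% of the genes. The signalling kinases Lck and Zap70 differed by -0.07 (SE 0.08) and 0.06 (SE 0.08), the adhesion receptor Cd2 by -0.04, and the costimulatory receptors Cd28 and Cd27 by -0.18 (adjusted p = 0.089) and -0.02. Il7r, the receptor subunit for the T cell survival factor interleukin 7, differed by -0.26 (SE 0.16, adjusted p = 0.24) and varied more between rats than 93.4% of all genes.

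**Figure D4:**
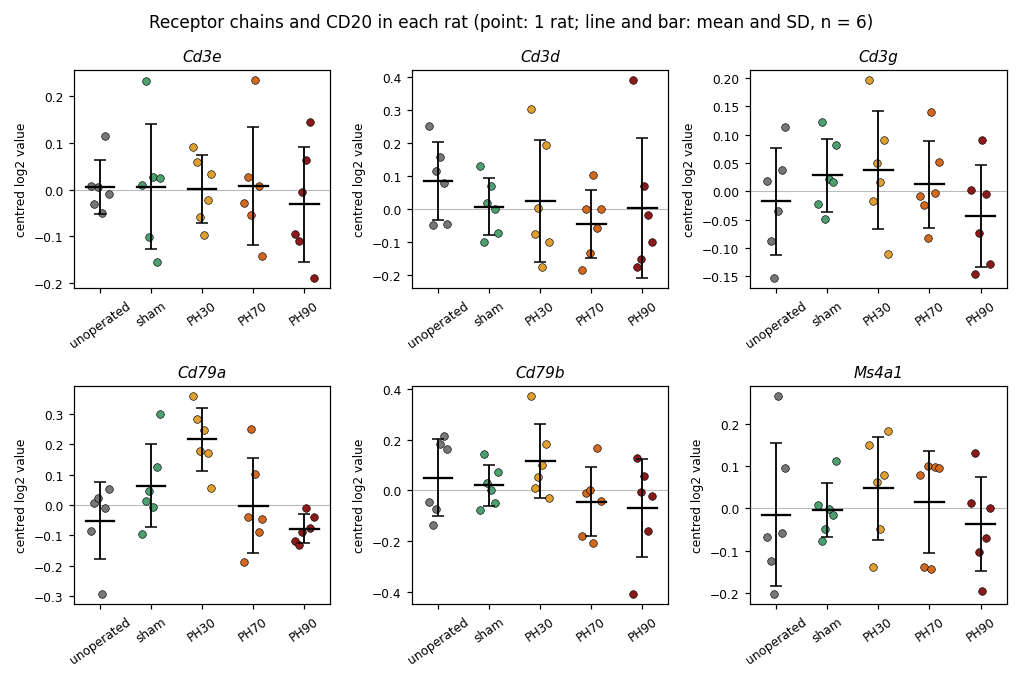
Centred log2 value (vertical axis) of the 3 CD3 chains, the 2 CD79 chains and Ms4a1 (CD20) in each rat by group, with the group mean and SD (n = 6). The groups overlap in the Cd3e, Cd3d and Cd3g panels, and Cd79a is highest in PH30 (mean 0.21) and lies in a narrow band in PH90 (-0.13 to -0.01).

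B and plasma cell genes were lower in PH90 than in sham in 2 of 5 cases (40%) and higher in 0, where 14.7% of all genes were lower and 19.9% higher. Cd22, a lectin that dampens the B cell receptor, lay between -0.01 and 0.39 in sham (median 0.11) and between -0.45 and -0.03 in PH90 (median -0.27), a 1.31-fold fall (-0.39, SE 0.1, adjusted p = 0.0037). Jchain, which joins the units of secreted IgA and IgM, lay between 0.02 and 0.46 in sham (median 0.23) and between -0.38 and 0.01 in PH90 (median -0.17), a 1.34-fold fall (-0.42, SE 0.11, adjusted p = 0.0022). Neither pair of ranges overlapped, though Jchain differed by only -0.2 from the unoperated rats (adjusted p = 0.16). Cd79a and Cd79b, the signalling chains of the B cell receptor, differed from sham by -0.14 (adjusted p = 0.13) and -0.09 (adjusted p = 0.48), and Ms4a1, which encodes CD20, by -0.03 (adjusted p = 0.78). Cd79a was higher in PH30 than in unoperated rats by 0.27 (SE 0.07, adjusted p = 0.014).

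Of the homing genes, Ccr7, the receptor that guides lymphocytes to lymph nodes, was lower in PH70 (-0.27, SE 0.09, adjusted p = 0.039) and PH90 (-0.25, SE 0.09, adjusted p = 0.035). The PH90 call was lost without sham rat 141 or PH90 rat 39, 43, 87 or 106, where the difference was between -0.25 and -0.19. The PH70 call was lost without sham rat 45, 114 or 141 or PH70 rat 37, 58, 59 or 136, between -0.27 and -0.21. Sham rat 141 had the highest Ccr7 value of its group, 0.33, against 0.04 or less in the other 5. Cxcr6, found on lymphocytes that stay in the liver, differed by -0.11 in PH90 (SE 0.1, adjusted p = 0.47). Its ligand Cxcl16, looked at after its value was seen, was 0.35 higher (adjusted p = 0.04).

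Between the resections the same direction was seen. PH90 was below PH30 for 10 of the 30 genes, or 33.3%, and above for 0, where 13.1% of all genes were lower and 18.4% higher. These were Klrk1 (-0.64, SE 0.1, adjusted p = 8.2e-06), Nkg7 (-0.54, SE 0.08, adjusted p = 3.3e-06), Cd7 (-0.76, SE 0.15, adjusted p = 0.00013), Prf1, Cd79a, Cd22, Cd5, Cd4, Cxcl13 and Ncr1. Cd79a was 1.22-fold lower (-0.29, SE 0.07, adjusted p = 0.0014), with all PH90 rats below all PH30 rats. Calls were lost for Cd4 without PH30 rat 98 or PH90 rat 39 or 43 (-0.48 to -0.44), for Cxcl13 without PH30 rat 130 or 140 or PH90 rat 61 or 111 (-0.5 to -0.41), and for Ncr1 without PH30 rat 65 or 98 or PH90 rat 43, 61 or 87 (-0.17 to -0.16). Before adjustment limma put 15 lower and 0 higher at p below 0.05, where 3228 of all 18166 genes were lower and 3924 higher. Without rats 95 and 139, Cd8a was called too (-0.26, adjusted p = 0.025), and 11 were lower, where 15% of all genes were lower and 19.7% higher. Without PH90 rat 61, 9 of the 30 were called, 8 lower and 1 higher. In that fit 5414 of all 18166 genes were called in both directions together, against 5715 over all 30 arrays. The 5414 were not split by direction. The gene called higher was Cxcr5 (0.2, SE 0.07, adjusted p = 0.038), which differed by 0.14 over all 30 arrays (adjusted p = 0.18).

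PH90 was below PH70 for 3 genes, or 10%, where 10.4% of all genes were lower and 14.1% higher, a share at the background. The 3 genes were Cd7 (-0.57, SE 0.15, adjusted p = 0.004), Klrk1 (-0.38, SE 0.1, adjusted p = 0.0054) and Nkg7 (-0.28, SE 0.08, adjusted p = 0.0084). For each of them all 6 PH90 rats lay below the PH70 mean, though the ranges of the groups overlapped. All 3 lost their calls when the arrays were rescaled to a common spread (adjusted p = 0.055, 0.053 and 0.081). PH70 and PH30 differed in 0 of the 30 genes, where 0.512% of all genes were lower and 1.76% higher. At an unadjusted p below 0.05 in limma, 9 were lower and 0 higher. Among all 18166 genes 1371 were lower and 1809 higher at that threshold. Without rats 95 and 139, 7 were lower in PH70 than in PH30, where 4.45% of all genes were: Cd4 (-0.64), Cd7 (-0.41), Prf1 (-0.38), Cd22 (-0.33), Nkg7 (-0.31), Cd79a (-0.24) and Cd27 (-0.17). Leaving out only rat 95 or only rat 139 gave 3 of the 30. Of all 18166 genes these 2 fits called 1911 and 1406, against 413 over all 30 arrays.

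**Figure D5:**
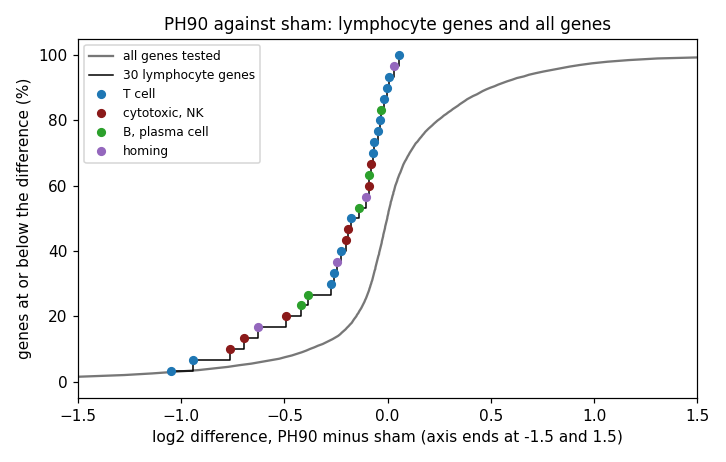
Cumulative share (vertical axis, %) of the 30 lymphocyte genes (black steps, points coloured by lineage) and of all 18166 genes (grey line) at or below each log2 difference between PH90 and sham (horizontal axis). The points lie to the left of the grey line over most of their range and end near 0, with a median of -0.16 against -0.002.

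Further lymphocyte genes on the array were listed by function, but with earlier results of these data known, so their counts are no independent support. They were set beside all genes in PH90 against sham, of which 14.7% were lower and 19.9% higher. Of 22 further NK and cytotoxic genes 8 fell (36.4%) and 1 rose (4.55%), with a median of -0.09. Ccl5, a chemokine made by killer lymphocytes, fell 1.74-fold (-0.8, SE 0.18, adjusted p = 0.00077), Fcgr3a, the Fc receptor of NK cells and macrophages, 1.64-fold (-0.71, SE 0.15, adjusted p = 0.00025), and Klrg1, an inhibitory receptor of mature NK and T cells, 1.6-fold (-0.68, SE 0.1, adjusted p = 5.1e-06). The gene that rose was Zbtb16, the factor PLZF of innate-like lymphocytes (1.18, SE 0.32, adjusted p = 0.0039), which other cells also make. Of 25 further T cell genes 3 fell (12%) and 0 rose, a share of lower genes below that of all genes. Among the 3 was Pdcd1, the inhibitory receptor PD-1 (-0.26, adjusted p = 0.0067). Of 21 further B and plasma cell genes 4 fell (19%), near the share of all genes. The B cell scaffold Bank1 was among them (-0.43, adjusted p = 4e-05), and 1 gene, Sdc1, rose (0.69, adjusted p = 2.6e-06). Sdc1 is a plasma cell marker that hepatocytes also make.

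Genes of lymphocyte traffic included large changes. Of 28 chemokines, cytokines and their receptors 8 fell (28.6%) and 4 rose (14.3%) in PH90, so that the share that rose was below the 19.9% of all genes. Cxcl12, a chemokine that holds lymphocytes in tissue, fell 7.09-fold (-2.83, SE 0.2, adjusted p = 2.1e-12), Cxcl11, which attracts activated T cells, 3.56-fold (-1.83, SE 0.13, adjusted p = 4.1e-12), and S1pr1, the receptor for exit from tissue that endothelium also carries, 2.71-fold (-1.44, SE 0.15, adjusted p = 2.9e-09). Ccl2, which attracts monocytes, rose 2.33-fold (1.22, SE 0.22, adjusted p = 3.7e-05). In PH70 Cxcl12 was lower by 0.85 (adjusted p = 0.0022) and Ccl2 higher by 0.81 (adjusted p = 0.008). Among 17 genes shared by all leukocytes 6 fell (35.3%) and 2 rose (11.8%) in PH90, for example Dock2 (-0.68, adjusted p = 5.2e-08) and Ptprc, which encodes CD45 (-0.33, adjusted p = 0.026). Cd44 (1.02, adjusted p = 2.4e-10) and Coro1a (0.26, adjusted p = 0.027) rose.

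Markers of other cells also differed between PH90 and sham, with called genes mostly lower in some lists and only higher in the neutrophil and proliferation lists. Of 17 Kupffer cell and macrophage markers 9 were lower (52.9%) and 1 higher in PH90 than in sham, with a median of -0.24, where 14.7% of all genes were lower. Csf1r, the receptor for macrophage growth factor, fell 2.1-fold (-1.07, SE 0.14, adjusted p = 2.6e-07), Cd5l 2.01-fold and Clec4f, a lectin of Kupffer cells, 1.84-fold. Without rats 95 and 139, 11 of the 17 markers were lower and 1 higher, where 15.4% of all genes were lower and 21.1% higher. The mean of the 17 markers lay between 0.004 and 0.22 in sham, between -0.3 and 0.37 in PH30, between -0.34 and 0.34 in PH70, between -0.56 and 0.01 in PH90 and between -0.26 and 0.01 in unoperated rats. PH70 rat 139, high in Cd4, was the highest PH70 rat in this mean. PH30 rat 95 was the lowest PH30 rat in this mean, while its Cd4 value of -0.03 lay near the PH30 median of -0.02.

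Of 14 markers of dendritic cells and MHC class II, 7 were lower (50%) and 1 higher in PH90, with list means of 0.03 to 0.28 in sham and -0.24 to -0.04 in PH90. RT1-Bb, an MHC class II chain, was 1.01 lower (adjusted p = 0.0023), and Cd74, the invariant chain of that pathway, which B cells also make, 0.85 lower (adjusted p = 0.00018). Of 8 markers of sinusoidal endothelium 4 were lower (50%) and 0 higher, with list means of -0.21 to 0.31 in sham and -0.58 to -0.26 in PH90. Of 15 neutrophil markers 5 were higher (33.3%) and 0 lower, where 19.9% of all genes were higher, with list means of -0.09 to 0.03 in sham and -0.05 to 0.26 in PH90. Of 9 red cell markers 3 were lower (33.3%) and 0 higher, with list means of 0.04 to 0.35 in sham and -0.15 to 0.05 in PH90, and Hbb-b1 was 1.13 lower. Of 14 proliferation genes 6 were higher (42.9%) and 0 lower. Which of these markers were at or near 0 is not known from centred values, and the part of other cells or of residual blood in the lymphocyte results was not tested.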

How the data were processed

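RNA from 30 rat livers was hybridised to 1 array each. Per the submitters' processing notes, the authors made the values with RMA in Affymetrix Expression Console, with no version named there. RMA corrects background, equalises arrays and summarises probes as log2. In the deposited table log2 values lie between -6.04 and 5.44. Each of the 29489 probe sets has a median of 0 over the arrays within 5e-07, so values were centred before deposit. The table states neither scale nor centring. Log2 is taken from RMA. Column medians lie between -0.009 and 0.022. Precision is limited by 6 arrays per group.

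The 18511 probe sets with exactly 1 symbol in the platform annotation gave 18166 genes, each the mean of its probe sets, and 29 of the 30 lymphocyte genes had 1 probe set. Those with several symbols (575) or no gene (10403) were not used. With levels lost, no filter on low values was applied.

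Tests used limma (3.58.1, under R 4.3.3), with 1 mean per group, 25 residual and 3.71 prior degrees of freedom, two-sided, in 7 pairwise comparisons and an F test over the 5 groups, adjusted over all genes. The steps were tested on simulated data. Each rat is 1 sample, and the labels give no batch and pair no rats.

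The genes, the lists and the tests were chosen with earlier results of these data known. All genes of the set may be named, and of each further list up to 4 called genes by size of change in a comparison. Alternatives were a fit of the compared groups alone, leaving out rats 95 and 139 or each rat in turn, array weights, robust eBayes, the probe set of largest SD, recentred and rescaled arrays, only the 9083 genes above the median SD, and unoperated rats as the control.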

Additional observations from a re-analysis of the deposited data

Results flagged for a closer look

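In 10 of the 150 combinations of a lymphocyte gene and a group, 1 rat lay far from the other 5 by Dixon's test at the 95% level, which chance gives in about 1 of 20 groups. Rats 139 and 145 account for 4 of them. PH70 rat 139 had a Cd4 value of 0.51, against -0.97 to -0.48 in the other 5 PH70 rats, and a Cd7 value of 0.58, against -0.53 to -0.13. Unoperated rat 145 had a Cd28 value of -0.34, against -0.05 to 0.05, and a Gzmk value of 0.15, against -0.08 to -0.04. PH30 rat 95 was low in Cd27 (-0.23, against 0.05 to 0.14) and PH30 rat 99 in Lck (-0.11, against 0.1 to 0.2). PH70 rat 97 was low in Gzmk (-0.32, against -0.07 to 0.05). Sham rat 141 was high in Ccr7 (0.33, against -0.03 to 0.04), PH90 rat 106 in Ncr1 (0.12, against -0.21 to -0.09), and unoperated rat 150 in Cd3e (0.12, against -0.05 to 0.01). The calls of Ccr7 that depend on rat 141 are given with that gene.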

How the results depend on the processing

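Of 31 differences called for single lymphocyte genes, 0 changed sign in any alternative. All 31 were called without rats 95 and 139, with array weights, with robust eBayes and with the probe set of largest SD, 27 in fits of the compared groups alone and 23 on rescaled arrays. Of 26 that passed the filter on SD all were called, and of 17 against sham 11 were called against unoperated rats. The number of lymphocyte genes called moved as follows, and the causes were not tested. Sham against unoperated gave 2 in place of 1 with array weights, where the share of all genes called went from 0.738% to 2.97%. PH30 against sham gave 1 in place of 0 in the 2 groups alone, without rats 95 and 139, with array weights and under the filter, and 2 against unoperated rats. The share of all genes called was 5.53% at first and 7.08%, 10.9% and 10.7% in the first 3 of these. It was 14.3% of the 9083 genes under the filter and 9.85% against unoperated rats. PH70 against sham gave 7 in place of 4 with array weights (26.1% of all genes in place of 18.6%). PH90 against sham gave 8 in place of 13 against unoperated rats (33.8% in place of 34.6%). PH70 against PH30 gave 7 without rats 95 and 139 and 6 with array weights, in place of 0 (13.3% and 12% of all genes in place of 2.27%). PH90 against PH70 gave 0 in place of 3 on rescaled arrays (17.8% in place of 24.5%). The F test gave 8 in place of 13 over the resected groups alone (32.4% in place of 42.7%). Leaving out 1 rat at a time gave 1 to 1 genes for sham against unoperated, 0 to 0 for PH30, 3 to 6 for PH70 and 10 to 13 for PH90 against sham, 0 to 3 for PH70 and 8 to 12 for PH90 against PH30, 3 to 4 for PH90 against PH70, and 9 to 14 for the F test. Among all 18166 genes these fits called 70 to 139 for sham against unoperated. Against sham they called 626 to 1527 for PH30, 2867 to 4059 for PH70 and 5949 to 6225 for PH90. Between resections they called 18 to 1911 for PH70 and 5288 to 6133 for PH90 against PH30, and 3966 to 4525 for PH90 against PH70. The F test called 7440 to 8260. No paired analysis was possible because each rat has its own number and the groups share none. Signal over background is not known from the centred values.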

Other observations

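Within groups the lymphocyte genes showed little common variation. After each group's mean was taken off, the median correlation over the 30 rats was 0.04 for the 435 pairs of the set and -0.001 for all pairs of the 18166 genes. It was 0.1 among the 91 pairs of T cell genes, 0.005 among the 21 pairs of cytotoxic and NK genes and 0.1 among the 10 pairs of B cell genes. The highest pairs were Cd2 with Ncr1 (0.67), Cd4 with Cd7 (0.6) and Cd28 with Cxcr5 (0.6), and Cd4 also varied with Il7r (0.6), Prf1 (0.59) and Klrk1 (0.5). PH70 rat 139 had the highest PH70 value of Cd4 (0.51), Cd7 (0.58), Il7r (0.33), Prf1 (0.28) and Klrk1 (0.2). Correlations without this rat were not computed, so its part in the Cd4 pairs is not known. The values of a pair share their arrays, pairs share genes, and these correlations are descriptions with no test.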
